A study of Homo sapiens with 12 samples.

Results

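LINC RNAs are long intergenic noncoding RNAs that carry a systematic LINC number because no function-based name had been given to them. Members were chosen by measured level in these same libraries. Genes with such a symbol were taken when their mean CPM, the count scaled to a common library total, reached 0.5 in at least 1 of 4 groups, and genes in 3 regions on chromosomes 4, 6 and 14 were left out. This gave 237 members among 2267 LINC symbols and 60648 genes in the deposited table, and LINC02616 was among them. The minimum corresponds to 19.3 counts in the smallest library and 20.0 in the largest. LINC00870 (0.501), LINC00466 (0.504) and LINC01433 (0.505) lay just inside it by their highest group mean, and LINC03026 (0.473), LINC03073 (0.482) and LINC00853 (0.494) just outside.

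The cells were HCT116, a human colon carcinoma line kept in DMEM with fetal bovine serum. All 4 groups came from this line and held 3 libraries each. Wild-type cells (MTHFD2-WT) and knock-out cells (MTHFD2-KO) were harvested at an initial time, right after the knock-out was made, and at a final time after 2 months in culture. The knock-out was made with CRISPR-Cas9 and was 1 isolated clone, so the knock-out libraries are replicates of that clone, and an effect of the lost gene and a property of the clone cannot be told apart. The study's design text calls the 3 libraries of a group biological replicates. The labels name no agent other than the culture medium and no treatment beyond the knock-out.

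Long noncoding RNAs are transcribed by RNA polymerase II and are often spliced and polyadenylated like messenger RNAs, but they code for no known protein. Many are expressed at low levels and in few cell types, and some act in the nucleus on nearby genes, whereas others bind proteins or microRNAs in the cytoplasm. Most LINC RNAs have no established function. MTHFD2, the enzyme deleted here, is a mitochondrial enzyme of one-carbon folate metabolism, and the series title names its nuclear form and centromere methylation.

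Library totals ran from 38597809 to 40017561 counts, and 18289 genes entered the test, all 237 members among them. MTHFD2 was lower in every knock-out library (123 to 155 TMM-scaled CPM, that is CPM of a library total adjusted by TMM) than in any wild-type library (319 to 457). Knock-out against wild type, its log2 fold change was -1.59 (SE 0.108, edgeR adjusted p = 3e-08) initially and -1.38 (SE 0.107, edgeR adjusted p = 1.09e-07) finally. Of 10 epithelial and intestinal markers, EPCAM, CDH1, KRT8, KRT18, KRT19, CDX2 and CDH17 were tested, whereas VIL1, CDX1 and LGR5 were too low. They summed to 2620 to 3230 TMM-scaled CPM in the initial wild type, 3060 to 3200 in the final wild type, 2470 to 2710 in the initial knock-out and 2210 to 2590 in the final knock-out. Of the tested ones, the knock-out had 2 of 7 lower initially and 4 of 7 lower finally, with 0 higher each time. Of 8 markers of other cell types, LUM had 0 counts throughout and PTPRC was too low to test. The 8 summed to 64 to 75.5, 69.7 to 87.7, 46.3 to 56.9 and 52.4 to 67.9 TMM-scaled CPM in the same order of groups, with 1 of 6 higher and 2 of 6 lower in the knock-out at each harvest. For both lists, the shares over all genes tested were 8.55% higher and 11.3% lower initially, and 8.38% and 10.2% finally. The part of these markers in the results below was not tested. In bulk RNA, fewer cells that express a gene and less RNA per cell cannot be told apart.

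Most members were present in all groups. The minimum was reached in all 4 groups by 164 members, in 3 by 25, in 2 by 22 and in 1 by 26. A member that passed in only some of the groups was low in the others by selection, so its difference between groups was partly built into the choice. Of the members described below, LINC00494, LINC00668, LINC02313 and LINC02535 reached it in 1 group, and LINC00698, LINC00943, LINC00944, LINC01170, LINC01714, LINC01970, LINC02967 in 2 and LINC02893 in 3. The highest group mean lay from 0.5 to 1 CPM for 86 members, from 1 to 5 for 107 and at 5 or more for 44. GENCODE 29 types 185 as lincRNA, 18 as antisense, 17 as processed transcript, 9 as pseudogenes of some kind and 2 as protein-coding (LINC03040 and LINC02693). The members lay on 23 chromosomes, with 28 on chromosome 1. Their span overlapped a gene on the same strand in 66 cases and on the other strand in 133, and 91 overlapped none. Whether the authors' counting used strand is not given in the sources used here, so reads of overlapping genes may be mixed.

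Per length, the members were low. Their median level over the 12 libraries was 0.462 CPM per kb of exonic length (range 0.0246 to 9.09), against 5.26 for 13161 protein-coding genes past the same minimum. Their exonic lengths ran from 315 to 33198 bases with a median of 3401. The 11 most abundant members held 41.1% of the summed CPM of all members. The sum over the members was 901 ± 53 TMM-scaled CPM in the initial wild type, 854 ± 20.3 in the final wild type, 891 ± 27.9 in the initial knock-out and 984 ± 49.5 in the final knock-out (SD, n = 3 each).

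LINC00641 (ENSG00000258441.1, chromosome 14, 21200079 to 21206900 on GRCh38) had the highest level per length, 9.09 CPM per kb. It read 61.8, 37.9 and 52.5 TMM-scaled CPM in the initial wild-type libraries, 50.6, 44.1 and 40.7 in the final wild type, 62.7, 52.8 and 50.8 in the initial knock-out and 57.6, 64.3 and 47.8 in the final knock-out. The groups overlapped, and no comparison was past the test (edgeR adjusted p from 0.161 to 0.954). LINC03057 (6.51 CPM per kb, chromosome 17, 48635923 to 48647023) likewise stayed within 7.69 to 12.1 TMM-scaled CPM in all libraries, with an edgeR adjusted p from 0.347 to 0.901 in the comparisons of 2 groups. LINC01963 (7.7 CPM per kb, chromosome 2, 216217045 to 216220192) differed between the genotypes. It read 22.3, 18.0 and 20.8 in the initial wild type, 22.9, 18.4 and 17.7 in the final wild type, 26.0, 27.1 and 29.3 in the initial knock-out and 32.4, 29.5 and 26.3 in the final knock-out. Every knock-out library lay above every wild-type library, with log2 fold changes of 0.43 (SE 0.114, edgeR adjusted p = 0.0134) and 0.58 (SE 0.115, edgeR adjusted p = 0.00181) at the 2 harvests. The first of these calls was lost without initial knock-out replicate 3 (edgeR adjusted p = 0.0706). LINC00173 (8.89 CPM per kb), LINC02935 (6.16, on an exonic length of only 315 bases) and LINC03040 (5.2) completed the 6 highest and changed with time in 1 or both genotypes, as given with the culture comparisons.

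**Figure D1:**
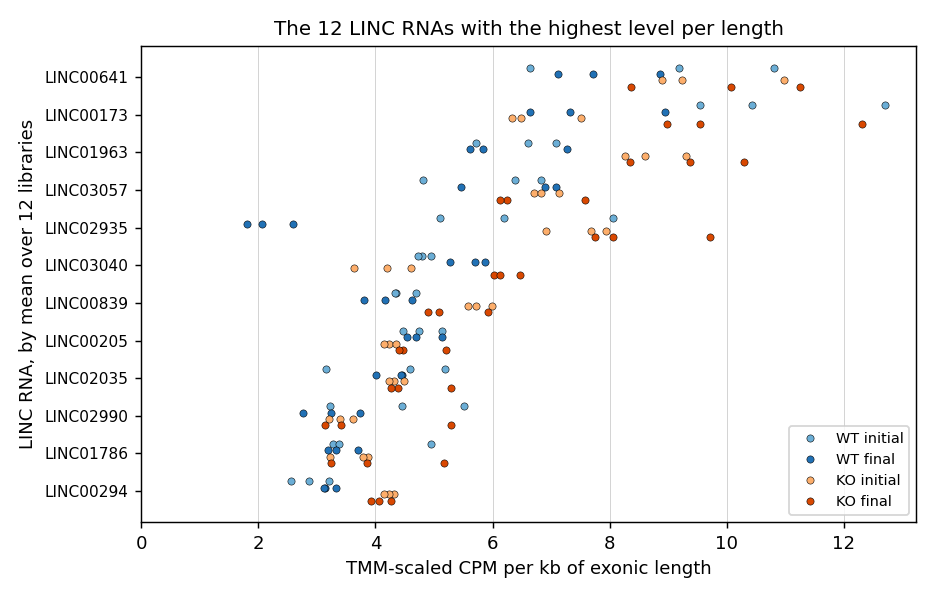
Levels of the 12 LINC RNAs with the highest mean level per length. The x axis is TMM-scaled CPM per kb of exonic length, each point is 1 library, and the colours are the 4 groups. LINC00641 and LINC00173 lead, the LINC02935 points of the final wild type lie apart on the left, and most others spread over overlapping ranges.

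Promoter sequences show how different the starts of members that moved can be. A RefSeq table of promoters (GRCh38.p14, 250 bases before to 50 after the annotated start) held 155 of the members by symbol, and the window nearest to the start in the deposited table was used. That window can lie far from the deposited start, by 7693 bases for LINC03057, 13276 for LINC02967 and 109969 for LINC02882. The 4 windows below are shown because these members carry results described further on and because their windows range from 2 to 20 CpG dinucleotides, the sites of DNA methylation in human cells. Capitals mark each CpG, and each sequence is read 5′ to 3′ on the gene's strand. They are LINC02535 (chr6:85390137-85390436, minus strand), LINC01170 (chr5:124438471-124438770, minus strand), LINC00668 (chr18:6929820-6930119, minus strand) and LINC00173 (chr12:116533172-116533471, plus strand).
LINC02535: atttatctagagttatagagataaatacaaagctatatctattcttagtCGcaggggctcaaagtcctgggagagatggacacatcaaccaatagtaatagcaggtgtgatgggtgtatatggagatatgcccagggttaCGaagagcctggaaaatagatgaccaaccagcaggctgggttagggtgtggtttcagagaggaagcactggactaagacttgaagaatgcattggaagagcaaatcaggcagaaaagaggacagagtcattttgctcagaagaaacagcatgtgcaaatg
LINC01170: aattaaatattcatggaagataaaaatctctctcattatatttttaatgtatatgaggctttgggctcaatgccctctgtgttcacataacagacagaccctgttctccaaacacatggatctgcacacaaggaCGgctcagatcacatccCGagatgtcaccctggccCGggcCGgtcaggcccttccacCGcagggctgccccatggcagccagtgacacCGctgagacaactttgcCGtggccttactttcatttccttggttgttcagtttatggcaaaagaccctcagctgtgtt
LINC00668: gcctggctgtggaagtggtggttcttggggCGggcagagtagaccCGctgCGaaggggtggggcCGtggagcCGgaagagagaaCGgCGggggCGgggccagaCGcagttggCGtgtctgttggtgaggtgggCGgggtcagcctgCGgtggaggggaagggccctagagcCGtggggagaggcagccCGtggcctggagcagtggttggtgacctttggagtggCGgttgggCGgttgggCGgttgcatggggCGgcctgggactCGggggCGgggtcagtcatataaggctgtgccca
LINC00173: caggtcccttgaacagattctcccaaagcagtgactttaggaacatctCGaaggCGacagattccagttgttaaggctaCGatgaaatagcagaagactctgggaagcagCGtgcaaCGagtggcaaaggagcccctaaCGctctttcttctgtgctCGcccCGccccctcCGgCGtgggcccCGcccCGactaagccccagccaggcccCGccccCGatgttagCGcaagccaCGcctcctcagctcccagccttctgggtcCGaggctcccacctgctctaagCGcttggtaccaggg
LINC02535 has 2 CpG in its window (GC content 43.3%), LINC01170 has 7 (48.7%), LINC00668 has 20 (69.3%) and LINC00173 has 18 (61%). The starts on which the windows are centred lie 0 bases from the start in the deposited table for LINC02535 and LINC00173, 97 bases for LINC00668 and 105 for LINC01170. Over the 155 members the median was 11 CpG, against 14 for all 35116 promoters of the table and 26 for the 12084 tested genes found in it. Members with fewer than 10 CpG in the window passed the test between genotypes in 21 of 73 cases (28.8%) at the initial harvest and 22 of 73 (30.1%) at the final harvest. Members with 10 or more passed in 16 of 82 (19.5%) and 15 of 82 (18.3%). Members raised in the knock-out had a median of 9 CpG at both harvests. It was 8.5 and 5.5 for those that were lower, and 14 and 13.5 for those not called. For all tested genes with a window the medians were 27, 24 and 26 at the initial harvest and 24, 24 and 26 at the final harvest, in the same order. Over all genes tested 19.9% passed initially and 18.5% finally, and their shares by CpG class were not computed. The counts by CpG class are thus a description without a background, and DNA methylation was not measured in these libraries.

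Letters of known motifs were searched on both strands in the same windows, and none of the 4 motifs contains another. The TATA box TATAAA was in 14 of the 155 windows (9.03%, against 11.5% of all promoters) and the E-box CACGTG also in 14 (9.03%, against 7.26%). The cAMP response element TGACGTCA was in 4 (2.58%, against 1.85%) and the ATF4-C/EBP composite element TTGCATCA in 3 (1.94%, against 0.866%).

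At the initial harvest, knock-out and wild type were compared to ask what differed right after the knock-out was made. Of the 237 members, 54 differed at an adjusted p under 0.05 in edgeR's quasi-likelihood test over all 18289 genes (22.8%), 25 of them raised and 29 lowered in the knock-out. Over all genes tested 19.9% passed, 8.55% raised and 11.3% lowered, and of the 16195 tested genes past the same minimum 21.6% did, so the members' share was near the background. The median over the members was a log2 fold change of 0.02, against 0.00 over all genes. Of the 164 members at or over the minimum in every group, 31 passed (18.9%), 13 higher and 18 lower. At an unadjusted p under 0.05 there were 84 of 237 members. The share of all genes at that looser threshold was not computed, so this count has no background beside it.

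LINC02967 (ENSG00000274173.1, chromosome 20, 24931840 to 24932983) was nearly absent from the knock-out. It had 76, 70 and 70 counts in the initial wild type against 3, 1 and 1 in the initial knock-out, which is at the floor of 3 counts or fewer in each library. Against that floor it was at least 23.5-fold lower (edgeR adjusted p = 6.35e-09). At the final harvest it had 55, 62 and 58 counts in the wild type and 9, 5 and 7 in the knock-out, a log2 fold change of -3.10 (SE 0.249, edgeR adjusted p = 1.48e-07). Wild-type and knock-out libraries did not overlap at either harvest. LINC02967 reached the minimum only in the wild-type groups, so a low knock-out was partly built into the choice.

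Among the called members with more than 3 counts in every library compared and ranges apart, LINC00494, LINC01714 and LINC02882 were lowered most at the initial harvest. LINC00494 (chromosome 20, 48359884 to 48370636) read 0.635, 0.469 and 0.551 TMM-scaled CPM in the wild type and 0.177, 0.125 and 0.128 in the knock-out, a log2 fold change of -1.92 (SE 0.322, edgeR adjusted p = 0.000412). LINC01714 (chromosome 1, 8201518 to 8215210) read 0.415, 0.791 and 0.626 against 0.177, 0.175 and 0.281, a log2 fold change of -1.52 (SE 0.397, edgeR adjusted p = 0.0123). The ranges of both genes were apart, but the LINC01714 call was lost without knock-out replicate 1 (edgeR adjusted p = 0.0521) or 2 (edgeR adjusted p = 0.0584). LINC00494 reached the minimum in 1 group and LINC01714 only in the wild-type groups, so their differences were partly built into the choice. LINC02882 (chromosome 12, 73820315 to 74402600) read 6.86, 4.82 and 6.83 in the wild type and 2.65, 2.43 and 2.63 in the knock-out, a log2 fold change of -1.26 (SE 0.171, edgeR adjusted p = 5.56e-05). Its span overlaps 1 gene on its own strand and 6 on the other.

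Under the same conditions on counts and ranges, LINC01170, LINC02893 and LINC00326 were raised most, while LINC00668, given below, was raised by more from wild-type counts of 1 to 4. LINC01170 (chromosome 5, 124059794 to 124438625) read 0.22, 0.0988 and 0.2 TMM-scaled CPM in the initial wild type and 0.555, 0.501 and 0.459 in the initial knock-out, a log2 fold change of 1.53 (SE 0.344, edgeR adjusted p = 0.00457). LINC02893 (chromosome 9, 87008440 to 87042419) read 0.366, 0.395 and 0.325 against 1.19, 0.902 and 0.97, a log2 fold change of 1.48 (SE 0.224, edgeR adjusted p = 0.000162). For both, the lowest knock-out library was above the highest wild-type library. LINC01170 reached the minimum only in the knock-out groups, and LINC02893 did not reach it in the initial wild type. Their differences were thus partly built into the choice. LINC00326 (ENSG00000231023.7, chromosome 6, 132954257 to 133107410) read 4.81, 5.34 and 5.01 in the wild type and 13.4, 13.7 and 14.6 in the knock-out. Its log2 fold change was 1.46 (SE 0.0933, edgeR adjusted p = 1.35e-08), and every knock-out library was above every wild-type library.

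At the final harvest, after 2 months in culture, the calls between genotypes were mostly in one direction. Of the 237 members, 58 differed (24.5%), 44 raised and 14 lowered. Over all genes tested 18.5% differed, 8.38% raised and 10.2% lowered, and of those past the same minimum 20% did. The members' median log2 fold change was 0.22, with 68.8% of members above 0, while the median over all genes was -0.00. In the 164 members at or over the minimum in every group the median was 0.16 and 38 passed, 31 higher and 7 lower. At an unadjusted p under 0.05 there were 91 of 237 members, again without a share of all genes at that threshold.

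Other noncoding genes leaned the same way by a smaller median. The median between genotypes after 2 months was 0.13 (log2) for 1711 other long noncoding genes past the minimum, 0.07 for 711 pseudogenes and -0.02 for 13161 protein-coding genes. By GC content of the exons, the members' medians were 0.29 under 42% GC, 0.27 from 42 to 50% and 0.16 at 50% or more. In the same classes other long noncoding genes had 0.17, 0.12 and 0.11, and protein-coding genes had -0.02, -0.02 and -0.03. Library by library, the median deviation of the members from their own 12-library mean lay between -0.068 and 0.004 (log2) in the 9 libraries of the other groups and at 0.082, 0.160 and 0.073 in final knock-out replicates 1, 2 and 3. Replicate 2 of the final knock-out stood highest, for the other long noncoding genes too (0.165). Without it the members' median at the final harvest was 0.15 and 42 members were called, 31 higher and 11 lower. Its part in the result was not tested further.

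**Figure D2:**
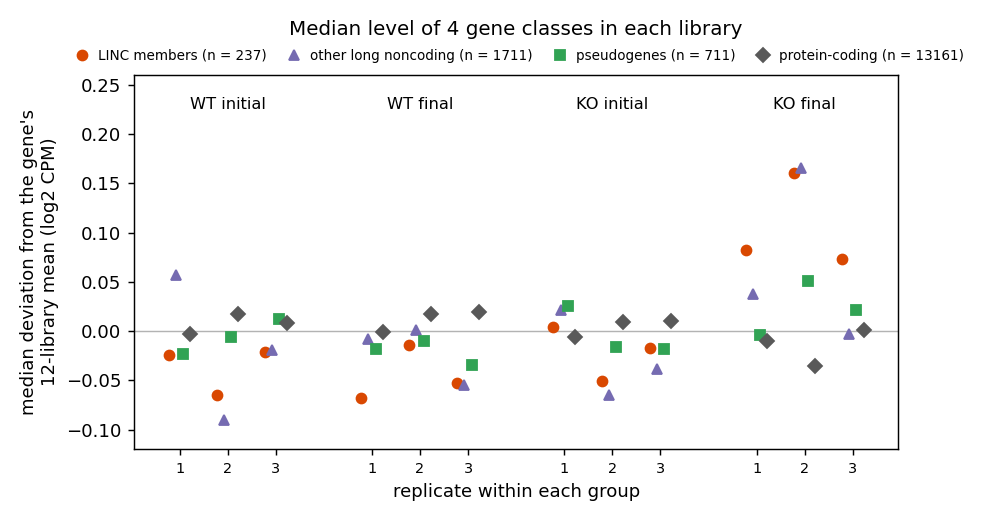
Median deviation of 4 gene classes in each of the 12 libraries. The y axis is the median over the genes of a class of log2 CPM minus the gene's mean over all libraries, and the x axis is the replicate within each group. The LINC RNAs lie at 0.073 to 0.160 in the final knock-out libraries and from -0.068 to 0.004 in the others, while protein-coding genes stay near 0.

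LINC00668 rose from the floor at the final harvest. It is an RNA studied in several carcinomas, and its start lies in the CpG-rich window shown above (ENSG00000265933.5, chromosome 18, 6919496 to 6929966). It had 0, 0 and 1 counts in the final wild type and 11, 13 and 22 in the final knock-out, which is at least 4.89-fold higher against the floor (edgeR adjusted p = 0.000119). At the initial harvest it had 1, 4 and 1 counts against 21, 23 and 19 (edgeR adjusted p = 0.000143). The genotypes did not overlap at either harvest, and all wild-type values were of 4 counts or fewer. LINC00668 reached the minimum only in the initial knock-out, so its initial difference was partly built into the choice.

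LINC02535 and LINC01730 were lowered most after LINC02967. LINC02535 (ENSG00000234155.1, chromosome 6, 85387219 to 85390186) read 0.787, 1.15 and 0.905 TMM-scaled CPM in the final wild type and 0.176, 0.255 and 0.251 in the final knock-out, a log2 fold change of -2.04 (SE 0.331, edgeR adjusted p = 0.000316). It was lower initially too, with 0.366, 0.618 and 0.4 against 0.202, 0.0501 and 0.179 (log2 fold change -1.67, SE 0.404, edgeR adjusted p = 0.00763). LINC02535 reached the minimum only in the final wild type, so its lower final knock-out was partly built into the choice. LINC01730 (chromosome 20, 3808357 to 3812434) read 5.7, 4.38 and 4.55 in the final wild type and 1.23, 1.3 and 1.13 in the final knock-out. Its log2 fold change was -1.99 at the final harvest (SE 0.205, edgeR adjusted p = 2.74e-06) and -1.10 at the initial harvest (SE 0.207, edgeR adjusted p = 0.00114), and its genotypes did not overlap. Its span overlaps a gene on the same strand.

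LINC00326 and LINC02935 were among those raised most, next to LINC02616. LINC00326 read 3.42, 3.62 and 3.7 in the final wild type and 19.6, 18.7 and 19.4 in the final knock-out, a 5.36-fold difference (log2 fold change 2.42, SE 0.0969, edgeR adjusted p = 3.09e-11). LINC01170 was raised by more, to 0.981, 1.22 and 1.31 against 0.0814, 0.208 and 0.103 (log2 fold change 3.12, SE 0.324, edgeR adjusted p = 2.99e-06), with wild-type counts of 3, 8 and 4. In both genes the groups were far apart.

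**Figure D3:**
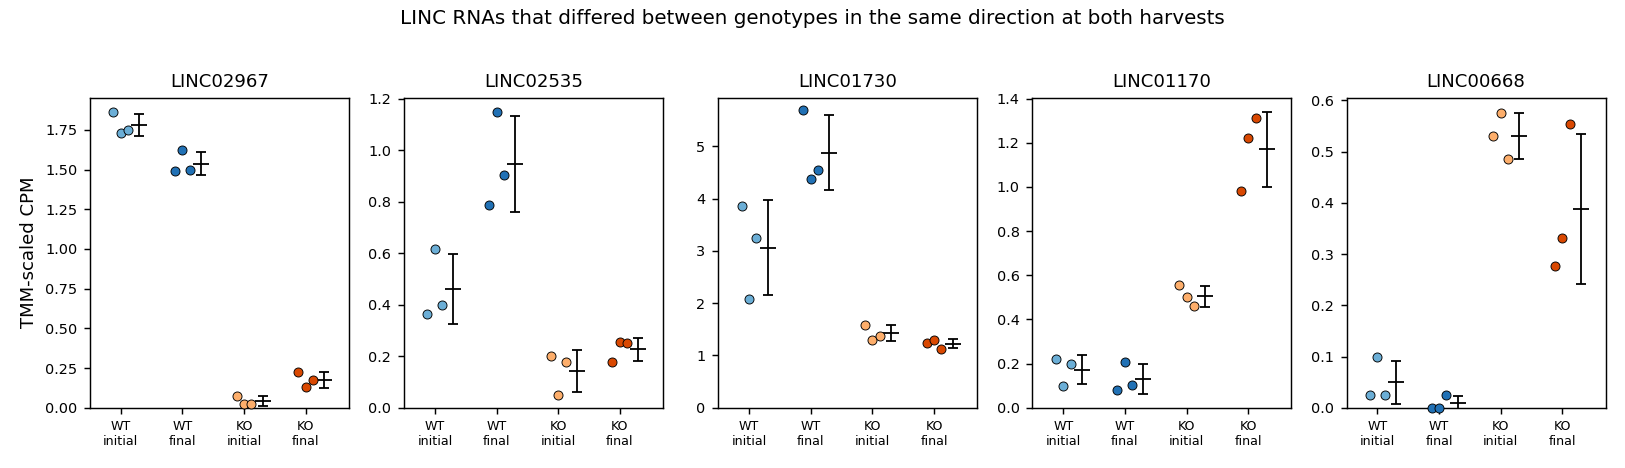
TMM-scaled CPM of LINC02967, LINC02535, LINC01730, LINC01170 and LINC00668 in the 4 groups, 1 panel per gene and each y axis from 0. Points are single libraries, and the bars beside them give the mean and SD of 3. The first 3 genes were lower and the last 2 higher in the knock-out at both harvests.

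The comparisons at the initial and the final harvest share no library. Both called 27 members, which is 50% of the 54 and 46.6% of the 58. Over all genes tested both called 1956, or 53.8% of the 3635 and 57.7% of the 3391, so the members' shares were not above those of all genes. In 25 of the 27 members the direction was the same, with 17 higher and 8 lower in the knock-out, and it was the same in 1926 of the 1956 genes. LINC00494, LINC00659, LINC00992, LINC01089, LINC01714, LINC01730, LINC02535 and LINC02967 were the 8 lower ones. LINC01503, which is driven by a super-enhancer in squamous carcinoma, was among the 17 higher ones. It read 3.32, 3.16 and 3.48 TMM-scaled CPM in the initial wild type, 2.47, 2.74 and 2.28 in the final wild type, 5.04, 4.39 and 4.13 in the initial knock-out and 5.28, 5.25 and 5.65 in the final knock-out. Its genotypes did not overlap, with log2 fold changes of 0.45 (SE 0.123, edgeR adjusted p = 0.0172) and 1.11 (SE 0.126, edgeR adjusted p = 7.81e-06). The initial call of LINC01503 was lost without initial knock-out replicate 1 (edgeR adjusted p = 0.0881). LINC00173 and LINC00698 were called in opposite directions at the 2 harvests.

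**Figure D4:**
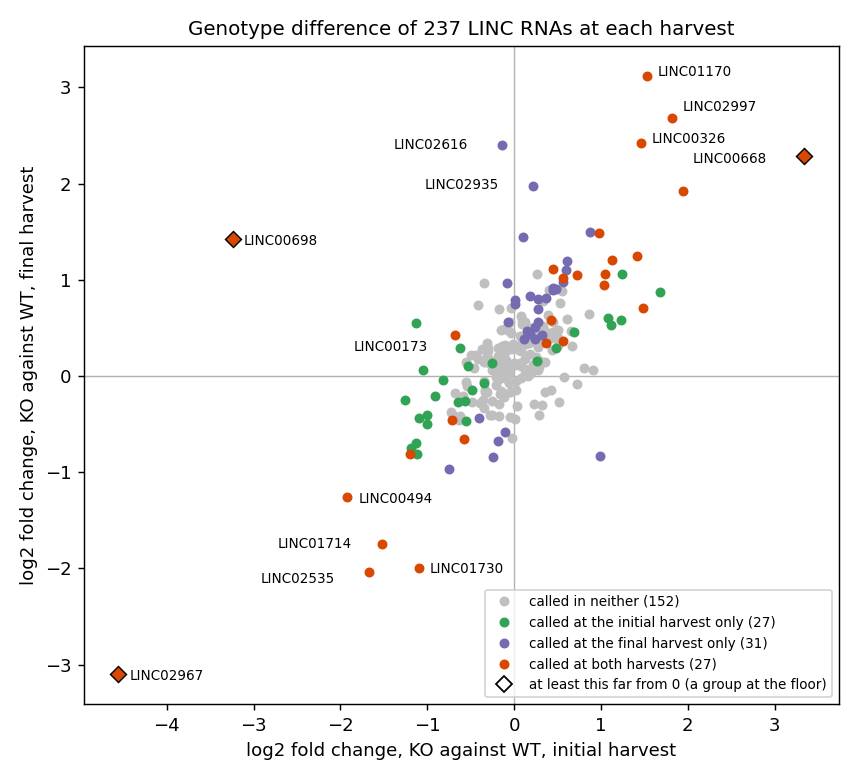
Log2 fold change of the 237 LINC RNAs between knock-out and wild type at the initial harvest (x axis) and at the final harvest (y axis). Each point is 1 RNA, coloured by the comparisons that called it, and diamonds mark RNAs drawn at the smallest difference that the floor allows. Of the RNAs called at both harvests, 25 lie in the upper right or lower left, and LINC00698 and LINC00173 in the upper left.

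In wild-type cells, 2 months of culture changed few members. Final and initial wild type differed for 13 of 237 members (5.49%), 5 higher and 8 lower finally. Over all genes tested 6.47% differed, 3.05% higher and 3.42% lower, and 7.15% of those past the same minimum did. The members' median was -0.01 (log2). At an unadjusted p under 0.05 there were 49, without a share of all genes at that threshold. The count of called members was 20 without initial wild-type replicate 2 and 8 without final wild-type replicate 3.

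LINC02935 (ENSG00000225292.2, chromosome 10, 112888735 to 112906111) was lowered most next to LINC02616, from 2.54, 1.61 and 1.95 TMM-scaled CPM to 0.814, 0.651 and 0.569 (log2 fold change -1.58, SE 0.213, edgeR adjusted p = 0.000254). LINC00698 (ENSG00000244342.5, chromosome 3, 62950430 to 63125062) went from 28, 31 and 28 counts to 11, 10 and 7 (log2 fold change -1.53, SE 0.299, edgeR adjusted p = 0.00501). In both the harvests did not overlap. LINC00698 reached the minimum in the initial but not in the final wild type, so its fall was partly built into the choice. LINC00963, an RNA first described in prostate carcinoma, was lower by less but from a high level, 52.9, 48.3 and 52.4 against 34.5, 34.8 and 36.6 (log2 fold change -0.54, SE 0.0734, edgeR adjusted p = 0.000292).

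LINC02313, LINC01970 and LINC02535 were raised most in the wild type. LINC02313 (chromosome 14, 31944853 to 31950382) went from 9, 4 and 12 counts to 33, 30 and 36, a log2 fold change of 2.06 (SE 0.311, edgeR adjusted p = 0.000695). It became a member only through the final wild type, the group where it was high, as did LINC02535. LINC01970 (chromosome 17, 82290046 to 82292814) went from 0.415, 0.395 and 0.576 TMM-scaled CPM to 1.0, 0.886 and 0.983 (log2 fold change 1.05, SE 0.24, edgeR adjusted p = 0.0144), and this call was lost without initial replicate 1 (edgeR adjusted p = 0.0503) or final replicate 3 (edgeR adjusted p = 0.0561). The LINC02535 values of the wild type, given above, rose by a log2 fold change of 1.03 (SE 0.291, edgeR adjusted p = 0.0445). That call sat at the threshold and was lost under most alternatives, as listed at the end.

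In knock-out cells, the members that changed over 2 months all went up. Final and initial knock-out differed for 8 of 237 members (3.38%), 8 higher and 0 lower. Over all genes tested 1.48% differed, 0.837% higher and 0.64% lower, and 1.65% of those past the same minimum did. At an unadjusted p under 0.05 there were 50, without a share of all genes at that threshold. The median log2 fold change was 0.18 with 74.7% of members above 0. It was 0.13 for other long noncoding genes, 0.02 for pseudogenes and -0.01 for protein-coding genes. The calls of the 1711 other long noncoding genes were also mostly upward, 17 higher and 1 lower. Across the GC classes used above, from low to high, the members' medians were 0.31, 0.13 and 0.16. Those of other long noncoding genes were 0.19, 0.15 and 0.07, and those of protein-coding genes were 0.07, 0.02 and -0.08. The part of GC content in these medians was not tested. The count rests on single libraries. It was 3, 2 and 4 without initial knock-out replicates 1, 2 and 3, and 3 and 4 without final knock-out replicates 1 and 3, and the median was 0.13 without final knock-out replicate 2.

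LINC00698 had 0, 1 and 0 counts in the initial knock-out and 28, 30 and 21 in the final knock-out. It was at least 8.78-fold higher at the final harvest (edgeR adjusted p = 2.91e-05), and the final knock-out count of replicate 3 alone lay below the counts of the initial wild type. LINC00698 reached the minimum in the final but not in the initial knock-out, so its rise was partly built into the choice. LINC00886 (chromosome 3, 156747343 to 156817062) read 1.66, 1.6 and 1.81 TMM-scaled CPM in the initial and 3.32, 2.81 and 2.76 in the final knock-out (log2 fold change 0.81, SE 0.15, edgeR adjusted p = 0.0109). LINC02894 (chromosome 8, 94637285 to 94639467) read 1.46, 1.08 and 1.22 and then 2.16, 2.24 and 2.08 (log2 fold change 0.78, SE 0.16, edgeR adjusted p = 0.02). LINC01170 rose further from the values above, by a log2 fold change of 1.21 (SE 0.251, edgeR adjusted p = 0.023). The harvests did not overlap in any of the 4. The call for LINC00886 was lost without initial knock-out replicate 1 (edgeR adjusted p = 0.0643) or 2 (edgeR adjusted p = 0.0778) or final replicate 1 (edgeR adjusted p = 0.0736). The call for LINC01170 was lost without any 1 of the initial knock-out replicates or without final replicate 2 or 3 (edgeR adjusted p from 0.0804 to 0.125). The call for LINC02894 was lost without initial replicate 2 or 3 or any 1 of the final replicates (edgeR adjusted p from 0.0518 to 0.125).

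LINC03040, LINC00511, LINC00326 and LINC00173 made up the 8. LINC03040 (chromosome 6, 44000580 to 44007612), which GENCODE 29 types as protein-coding, read 25.7, 23.4 and 20.2 and then 33.6, 34.1 and 36.0 (log2 fold change 0.58, SE 0.0904, edgeR adjusted p = 0.00275). LINC00511, an RNA studied in breast carcinoma among others, read 34.6, 34.4 and 32.4 and then 46.5, 40.1 and 46.0 (log2 fold change 0.39, SE 0.088, edgeR adjusted p = 0.0364). Final and initial knock-out libraries were apart for both genes. The call for LINC00173 (log2 fold change 0.60, SE 0.14, edgeR adjusted p = 0.0424) was lost without any 1 of the initial knock-out replicates, final knock-out replicates 1 or 2, initial wild-type replicate 3 or final wild-type replicate 2 (edgeR adjusted p from 0.0673 to 0.199). The call for LINC00511 was lost with the replicate number as a block (edgeR adjusted p = 0.0607), without any 1 of the initial knock-out replicates, final knock-out replicates 1 or 3, initial wild-type replicate 3 or final wild-type replicate 2 (edgeR adjusted p from 0.0656 to 0.185).

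The test of the interaction asks whether the difference between genotypes changed from the initial to the final harvest. It called 5 members (2.11%), 5 with a higher and 0 with a lower knock-out to wild-type ratio finally. The count and share include LINC02616, whose interaction was known when the members were chosen, so they are not free of that choice. They also include LINC00698, which reached the minimum only in the initial wild type and the final knock-out. Over all genes tested 1.28% were called, 0.809% with a higher and 0.476% with a lower ratio, and 1.44% of those past the same minimum were. Of the 1711 other long noncoding genes, 8 were called with a higher and 1 with a lower ratio. At an unadjusted p under 0.05 there were 38 members, without a share of all genes at that threshold. The count of called members was 11 without initial wild-type replicate 2. In the wild type LINC00698, LINC02935, LINC00326 and LINC00173 fell over time. In the knock-out LINC00698, LINC00326 and LINC00173 rose, and LINC02935 did not pass the test (log2 fold change 0.18, edgeR adjusted p = 0.684).

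LINC02616 (ENSG00000261761.5, chromosome 4, 37001772 to 37023499) is one of the 5, and it was included because its interaction was already known from these data, so its values are given without a test. It had 102, 103 and 97 counts in the initial wild type, 27, 16 and 25 in the final wild type, 82, 89 and 97 in the initial knock-out and 128, 153 and 96 in the final knock-out. These are 2.49 ± 0.0588, 0.599 ± 0.163, 2.26 ± 0.205 and 3.18 ± 0.747 TMM-scaled CPM (SD, n = 3). The final wild type was the low group, with no overlap with the others, and the initial wild type, initial knock-out and final knock-out lay near one another. The log2 fold change between genotypes was -0.14 initially and 2.40 after 2 months. Per length its mean level ranked 107 of 237.

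LINC02935 likewise had its lowest mean in the final wild type and its highest in the final knock-out. The initial and final knock-out read 2.5, 2.18 and 2.42 and 2.54, 3.06 and 2.44 TMM-scaled CPM, next to the wild-type values given above. The genotype difference was 0.22 (SE 0.178, edgeR adjusted p = 0.436) initially and 1.98 (SE 0.207, edgeR adjusted p = 3.33e-06) after 2 months, and the difference between these was 1.76 (SE 0.276, edgeR adjusted p = 0.00289).

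LINC00698 crossed over. Its initial knock-out was at the floor, at least 9.46-fold below the initial wild type (edgeR adjusted p = 8.98e-07), and its final knock-out was above the final wild type by a log2 fold change of 1.42 (SE 0.303, edgeR adjusted p = 0.003). With the floor in place of the initial knock-out, the genotype difference changed by at least 4.67 on the log2 scale (edgeR adjusted p = 1.49e-05). LINC00698 reached the minimum only in the initial wild type and the final knock-out, so all these differences were partly built into the choice.

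LINC00173 crossed over as well, and it had the highest level per length of the 5. It read 33.1, 24.9 and 27.2 TMM-scaled CPM in the initial wild type, 23.3, 19.1 and 17.3 in the final wild type, 19.6, 16.9 and 16.5 in the initial knock-out and 24.9, 32.1 and 23.4 in the final knock-out. The knock-out was lower at the initial harvest (log2 fold change -0.68, SE 0.14, edgeR adjusted p = 0.00231) and higher at the final harvest (0.43, SE 0.14, edgeR adjusted p = 0.0415), without overlap at either. The interaction was 1.11 (SE 0.198, edgeR adjusted p = 0.00786), and it was called without any 1 library. The final difference was lost without final knock-out replicate 1 or 2, final wild-type replicate 2 or 3, initial wild-type replicate 3 or initial knock-out replicate 2 or 3 (edgeR adjusted p from 0.056 to 0.214). Its fall in the wild type (log2 fold change -0.51, SE 0.14, edgeR adjusted p = 0.0372) was lost when only the wild-type libraries were fitted (edgeR adjusted p = 0.08) and without initial wild-type replicate 1 or 3, final wild-type replicate 2 or 3 or initial knock-out replicate 2 or 3 (edgeR adjusted p from 0.0521 to 0.175). LINC00326 fell in the wild type (log2 fold change -0.50, SE 0.101, edgeR adjusted p = 0.00686) and rose in the knock-out (0.47, SE 0.0867, edgeR adjusted p = 0.0109), so that its genotype difference grew by 0.96 (SE 0.133, edgeR adjusted p = 0.000941). Its rise in the knock-out was lost without initial knock-out replicate 1 or 2 or final knock-out replicate 1 or 3 (edgeR adjusted p from 0.0522 to 0.0937), and its fall in the wild type when only the wild-type libraries were fitted (edgeR adjusted p = 0.069).

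**Figure D5:**
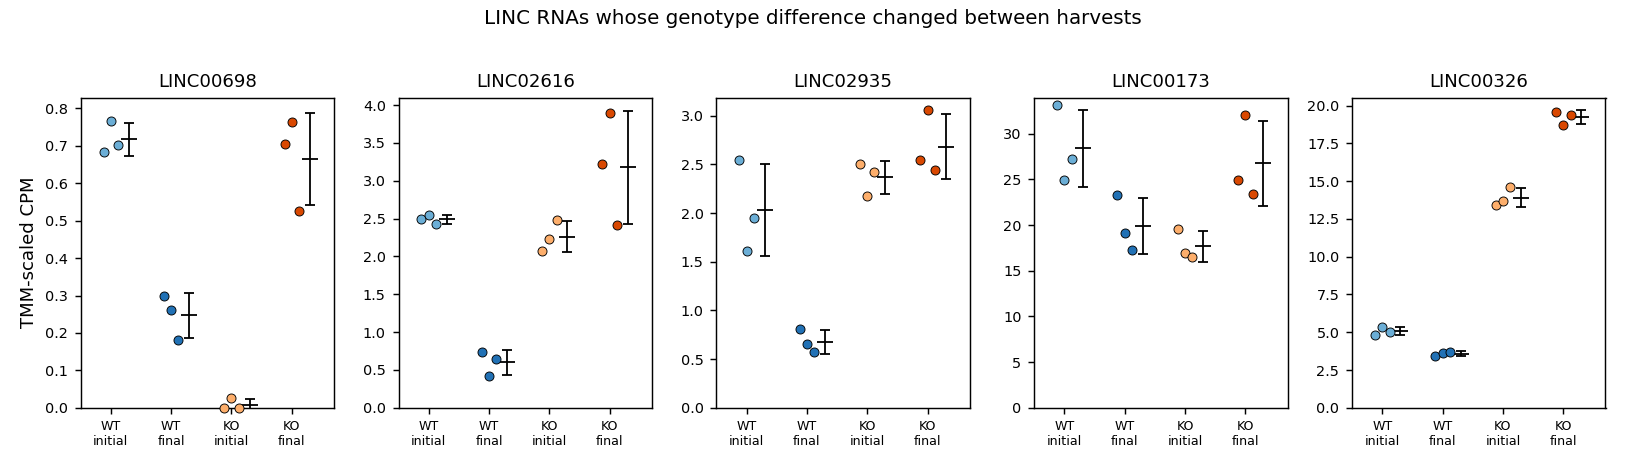
TMM-scaled CPM of the 5 LINC RNAs called for the interaction of genotype and time, 1 panel per gene and each y axis from 0. Points are single libraries, and the bars beside them give the mean and SD of 3. In every panel the final wild type is below the initial wild type and the mean of the final knock-out is above that of the initial knock-out, and LINC00698 starts at the floor in the knock-out.

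The nearest protein-coding gene was tested for 193 members. Of the 42 such members called at the initial harvest, 17 had a called neighbour (40.5%), 13 in the same direction, against 28 of the 151 members not called (18.5%). At the final harvest 14 of 45 had one (31.1%), 11 in the same direction, against 35 of 148 (23.6%). TMEM132B was counted there for both LINC00943 and LINC00944. Over all genes tested 19.9% were called initially and 18.5% finally. Neighbouring pairs of other genes were not examined, so the same-direction counts have no background. LINC01170 and ZNF608, a zinc finger gene 198288 bases away, were both higher in the knock-out, and ZNF608 went from 16.0 ± 0.84 to 28.0 ± 0.29 TMM-scaled CPM at the initial harvest and from 21.3 ± 0.901 to 48.2 ± 1.13 at the final harvest (SD, n = 3, wild type first). LINC02535 and NT5E, which encodes the ecto-5′-nucleotidase CD73 and lies 59398 bases away, were both lower in the knock-out, NT5E from 105 ± 13.9 to 61.9 ± 2.75 and from 145 ± 7.47 to 70.6 ± 6.3. LINC02935 went the other way from TCF7L2, a transcription factor of Wnt signalling 44136 bases away, whose log2 fold change at the final harvest was -0.36 (edgeR adjusted p = 0.0122). In the interaction test itself, none of the 4 interaction members with a tested neighbour had a called neighbour. In the comparison at the final harvest LINC00326 and its neighbour EYA4 were both called higher in the knock-out. LINC00943 and LINC00944, which overlap on chromosome 12, were both higher in the knock-out at the final harvest, with log2 fold changes of 1.20 (SE 0.252, edgeR adjusted p = 0.00266) and 1.21 (SE 0.231, edgeR adjusted p = 0.0013), and reads of one may be counted for the other.

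A list of 20 LINC RNAs known from carcinoma studies had 15 symbols in the table, of which 9 were tested and 8 were members. Symbols were matched as listed, so renamed genes are not among the 15. LINC01021, found under its present symbol PURPL and given below, is an example. The other absent symbols were not looked up under later names, so the counts cover only symbols that matched. Between genotypes 2 of the 9 were raised and 1 lowered initially (8.55% and 11.3% over all genes tested), and 3 were raised and 1 lowered finally (8.38% and 10.2%). Over time 1 was higher and 1 lower in the wild type (3.05% and 3.42% over all genes tested). In the knock-out 1 was higher over time (0.837%). LINC00460, an RNA linked to migration of carcinoma cells, read 2.25, 3.26 and 2.95 TMM-scaled CPM in the initial wild type and 4.02, 5.03 and 4.79 in the final wild type (log2 fold change 0.71, SE 0.173, edgeR adjusted p = 0.021). Its final knock-out, at 3.09, 2.5 and 3.67, was below the final wild type (log2 fold change -0.58, SE 0.172, edgeR adjusted p = 0.0264). Both calls were lost without final wild-type replicate 2 or 3, the rise also without initial wild-type replicate 1 or 3 and the genotype difference without final knock-out replicate 1 or 2 (edgeR adjusted p from 0.0605 to 0.114). LINC00963 was lower in the initial knock-out, at 43.6, 42.3 and 42.7 (log2 fold change -0.26, SE 0.073, edgeR adjusted p = 0.0203), a call that was lost without any 1 of the initial knock-out replicates or initial wild-type replicates 1 or 3 (edgeR adjusted p from 0.0538 to 0.0824). LINC01234, LINC00467 and LINC00662 were not past the test in any comparison, at 34.1 ± 4.32, 11.6 ± 1.46 and 15.7 ± 1.58 in the initial wild type (SD, n = 3).

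Long noncoding RNAs with names of their own were counted the same way. Of 42 listed, 36 were tested, and the knock-out had 8 raised and 3 lowered initially, 12 raised and 1 lowered finally, against the same shares over all genes tested (19.9% called initially and 18.5% finally). Their median log2 fold change was 0.11 and 0.16. Of the 14 host genes of small nucleolar RNAs among them, 4 were higher and 0 lower at each harvest. Over all genes tested 8.55% were higher initially and 8.38% finally. PURPL, a p53-induced RNA whose earlier symbol was LINC01021, went from 0.625 to 3.14 TMM-scaled CPM at the initial harvest and from 0.653 to 4.78 at the final harvest (log2 fold changes 2.32 and 2.87, edgeR adjusted p = 6.11e-06 and 3.82e-07, group means of 3).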

How the data were processed

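Poly-A selected RNA of 12 HCT116 libraries was sequenced. The submitters' processing notes name STAR, featureCounts, Subread and hg38. The authors deposited raw counts per gene in 1 table without normalization, per the file headers. The annotation release, the use of strand and the handling of multi-mapping reads are not given in the sources used here. The lines of 1 gene broken over 5 lines were left out. Symbols were found for 60462 of 60648 genes. Of the gene IDs, 37318 occur with the same version in GENCODE 29, all with identical GRCh38 coordinates, so coordinates are on GRCh38.

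Genes kept by filterByExpr were scaled by TMM and fitted with edgeR 4.0.16 (limma 3.58.1, R 4.3.3) in 1 robust quasi-likelihood model of all 12 libraries with a mean per group. A gene is called when its p-value, adjusted over 18289 genes by the Benjamini-Hochberg method, is under 0.05, and all adjusted p-values come from this test. Standard errors (SE) were derived from the F statistic. The test was run on simulated data with known changes beforehand. A group is at the floor when each library has 3 counts or fewer, and a fold against it is a lower bound with the floor of 3 counts per library. Floors cover counting error only.

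The members and lists were chosen with earlier results of these data known. Named are LINC02616, the 6 highest members per length, and in each comparison the 3 called members raised and lowered most, with more than 3 counts in every library and, apart from the interaction, ranges that do not overlap. The called member at the floor of 1 group that was highest in the other, members next to the minimum and called members of the carcinoma list are named too. LINC00943, LINC00944, PURPL, the neighbouring genes and the members given only by name, as well as LINC03040 over time, were picked after their values were seen. Alternatives were DESeq2 1.42.0, other size factors, no filter, a replicate block, only the groups compared, other minimums, members without overlaps and leaving out each library.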

Additional observations from a re-analysis of the deposited data

Results flagged for a closer look

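The change over 2 months of culture differed between wild type and knock-out for 5 LINC RNAs by the test of the interaction. The knock-out to wild-type ratio grew between the harvests by at least 4.67 (log2) for LINC00698, 2.54 for LINC02616, 1.76 for LINC02935, 1.11 for LINC00173 and 0.96 for LINC00326. The value of LINC02616 is a description, since the RNA was chosen for it. That of LINC00698 was partly built into the choice, since it reached the minimum only in the initial wild type and the final knock-out. In LINC00698, LINC00173 and LINC00326 final and initial libraries did not overlap in either genotype, with lower values in the wild type and higher values in the knock-out at the final harvest. The calls over time in single genotypes were lost for LINC00173 under 7 of 17 alternatives in each genotype, and for LINC00326 under 4 in the knock-out and 1 in the wild type. In LINC02616 and LINC02935 the final wild type was below the initial wild type without overlap, whereas the final and initial knock-out overlapped.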

How the results depend on the processing

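The counts of called members kept within 1.5 times of the reported ones under most alternatives, except as follows. Among the 91 members that overlap no other gene, 19 and 21 differed between genotypes at the initial and final harvest, 8 and 2 changed over time in wild type and knock-out, and 3 were called for the interaction, from fewer members. The interaction count was 8 with DESeq2 and 9 without a filter on low counts, and the cause was not tested. Leaving out 1 library gave 39 to 62 calls between genotypes at the initial and 39 to 61 at the final harvest, 8 to 20 over time in wild type, 2 to 10 over time in knock-out and 5 to 11 for the interaction. With a replicate block the counts were 56, 55, 13, 7 and 5. Same-numbered libraries correlated from -0.358 to 0.238 in their deviations from group means, and a library correlated best with its own number in 14 of 36 cases. Pairing by number was thus not seen across the groups, and deviations among 3 libraries per group cannot exclude it. Of 62 called differences of named members, 41 held under every alternative run, 21 were lost under at least 1 and 0 reversed, and 33 of the 62 were added after seeing the data. LINC02535 over time in wild type was lost under 12 alternatives, among them the replicate block (edgeR adjusted p = 0.0507), DESeq2 (adjusted p = 0.0562), the fit of only the 2 groups (edgeR adjusted p = 0.0761) and leaving out libraries (edgeR adjusted p up to 0.199). The block ended that call and LINC00511 over time in knock-out (edgeR adjusted p = 0.0607), and no other of the 62. Without a filter on low counts 5 of them were lost. DESeq2 gave no adjusted p for LINC00698 and LINC01170 over time in knock-out or for the interaction of LINC00698. Depth limits members near the minimum, which have about 20 counts per library.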
